A study of Mus musculus with 2 samples.

Results

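The 10 genes described here encode transcription factors, or partners of transcription factors, that set the fate of myeloid blood cells: Spi1, Gfi1, Gfi1b, Runx1, Irf8, Klf4, Gata1, Lmo2, Etv6 and Cbfb. They were chosen by gene symbol and are 10 of the 32285 genes listed in both count matrices. All 10 were found in both. The study carried out single-cell RNA sequencing on late promyelocytes, the granulocyte precursors at which acute promyelocytic leukemia cells are blocked, sorted from leukemic bone marrow of mice. All cells carried PLZF/RARA, an oncogenic fusion of the zinc finger protein PLZF with retinoic acid receptor alpha. They were sorted as positive for Cd45.2, c-Kit, Gr1 and the Fcγ receptor and negative for Cd34. One group received intraperitoneal retinoic acid at 0.8 to 1 mg for 7 days, and the control group received the vehicle, corn oil with 10% DMSO, by the same route and for the same time. A cohort held 3 to 5 mice. How many mice gave cells to a library, their age and strain, and the promoter that drives the fusion are not given in the sources used here.

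There was 1 library per group. Differences therefore have no replicate check, and none was tested. The intervals are 95% intervals for counting error only; they do not cover differences between mice, sorts or preparations. The vehicle library held 5476 cells with 99107718 UMIs after filtering, and that of retinoic acid 7140 cells with 110088247 UMIs; a UMI (unique molecular identifier) marks 1 captured RNA molecule. The median cell held 16750 UMIs under vehicle and 14604 under retinoic acid, and 11 barcodes occurred in both libraries. Levels are CPM, which scales counts to one total for each library, and ratios are log2 of the retinoic acid level over that under vehicle. The libraries also differed in the genes that mark promyelocytes. Ctsg, a primary granule protease, stood at 6444 and 5979 CPM, Elane at 62.8 and 7663 CPM, and Mpo, the myeloperoxidase gene, at 311 and 0.50 CPM in the vehicle and retinoic acid libraries. Of the sorted antigens, Kit stood at 19.3 and 16.7 CPM and Cd34, for which negative cells were sorted, at 53.8 and 0.12 CPM. Cells with at most 0.1% mitochondrial UMIs numbered 144 under vehicle and 490 under retinoic acid.

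Myeloid fate is set by factors that act together and against each other. PU.1, the product of Spi1, activates myeloid genes and opposes GATA1, while GFI1 represses monocyte genes in the neutrophil line and IRF8 and KLF4 carry cells toward monocytes. RUNX1 binds DNA with its partner CBFβ, the product of Cbfb, which does not bind DNA itself. LMO2 bridges DNA-binding proteins in complexes that can hold GATA factors, and ETV6 is a repressor of the ETS family. GATA1 and GFI1B, a close relative of GFI1, are best known from red cells and megakaryocytes, and GATA1 also from eosinophils and mast cells.

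RefSeq promoter windows of GRCm38.p6 were matched for 8 of the 10 genes, with 11 promoters in all. Those of Gfi1b and Gata1 are shown because these are the genes furthest below the vehicle level under retinoic acid. A window of Gfi1 is shown because Gfi1 is the relative of Gfi1b that differed the other way. The other Gfi1 window, at chr5:107724294-107724593, is not printed. The windows lie on the minus strand, run 5′ to 3′ and cross an annotated transcript start, at chr2:28621933-28622232 for Gfi1b, chrX:7967861-7968160 for Gata1 and chr5:107725756-107726055 for Gfi1. That of Gata1 lies inside the annotated gene, whose 5′ end is at 7978071, so it covers a start downstream of that end. Capitals mark GATAA, the core of the site bound by GATA factors.
Gfi1b: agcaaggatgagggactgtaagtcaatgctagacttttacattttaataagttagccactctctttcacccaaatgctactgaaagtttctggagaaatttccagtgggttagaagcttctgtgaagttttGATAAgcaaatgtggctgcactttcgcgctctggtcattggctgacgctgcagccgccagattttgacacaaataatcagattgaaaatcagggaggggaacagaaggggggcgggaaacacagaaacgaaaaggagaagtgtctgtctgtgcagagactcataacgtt
Gata1: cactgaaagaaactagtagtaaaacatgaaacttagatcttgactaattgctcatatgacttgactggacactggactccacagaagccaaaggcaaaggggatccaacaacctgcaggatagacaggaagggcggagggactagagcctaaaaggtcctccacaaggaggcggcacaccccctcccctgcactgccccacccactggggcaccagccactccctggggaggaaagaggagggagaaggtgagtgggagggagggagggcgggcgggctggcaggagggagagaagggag
Gfi1: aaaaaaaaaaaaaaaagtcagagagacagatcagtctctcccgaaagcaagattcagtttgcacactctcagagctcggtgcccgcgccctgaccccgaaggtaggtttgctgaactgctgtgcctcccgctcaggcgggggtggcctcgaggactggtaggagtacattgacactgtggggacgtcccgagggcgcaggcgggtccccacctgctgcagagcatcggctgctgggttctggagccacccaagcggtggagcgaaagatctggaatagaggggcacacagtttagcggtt
The letters GATAA, or TTATC for the other strand, occurred in 8347 of all 32851 promoter windows (25.4%). The Gfi1b window held 1 match, starting at position -119 from the transcript start, and no other window of the 8 genes held one. AAATCA, the core of the site bound by GFI1 factors, or TGATTT for the other strand, was in the windows of Gfi1b, Etv6 and Irf8 (both windows) and in 14.0% of all windows. A retinoic acid receptor site, the direct repeat of AGGTCA with a spacer of 5 bases (DR5), was searched on either strand and was in none of the 11 windows and in 3 of all windows. These matches describe letters in a window and are no evidence of binding, and a window without them says nothing about the factor.

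Between the libraries, Spi1 and Gfi1 were higher under retinoic acid and Runx1, Gata1 and Gfi1b were lower. Spi1 and Gfi1 were 1.70-fold and 1.91-fold higher, Runx1 was 1.45-fold lower, Gata1 was 10.7-fold lower, and Gfi1b went from 268 counts to 1. Lmo2, Etv6 and Cbfb were within 1.17-fold of the vehicle. Irf8 and Klf4 were near 0 in both libraries. A ratio of at least 2 was reached by 4 of the 10 genes, all lower under retinoic acid (Gfi1b, Irf8, Klf4 and Gata1, of which Irf8 and Klf4 had at most 21 counts), and among all 18843 genes with any count 32.3% reached it, 21.3% on the lower side. At 5 CPM or more in either library, 1 of 7 genes (Gata1) reached it, against 10.1% of 9145 genes (3.34% higher and 6.76% lower). With at least 20 CPM, 0 of 6 did, against 8.07% of 5548 genes (3.03% higher and 5.05% lower). The ratios of those 6 ran from -0.54 to 0.93. The median log2 ratio was -0.38 over all 10 genes, including those below 5 CPM. Over the 7 with at least 5 CPM it was -0.047, close to the -0.014 over the 9145 genes at that limit.

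**Figure D1:**
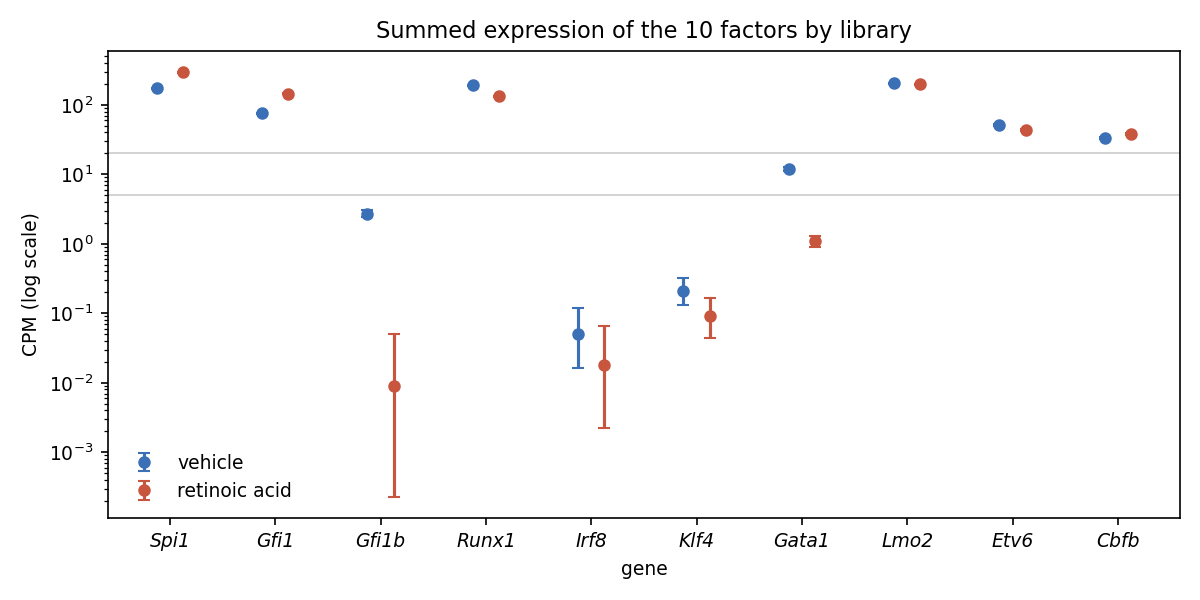
Summed level of each of the 10 genes in CPM (log axis) in the vehicle library (blue) and the retinoic acid library (red), with bars for the exact 95% Poisson interval and gray lines at 5 and 20 CPM. Spi1 and Gfi1 are higher in red, Gata1 stands at 11.8 CPM in blue and 1.10 CPM in red, and Irf8 and Klf4 stay below 1 CPM in both libraries.

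Spi1 (ENSMUSG00000002111, GRCm38 chr2:91082390-91115756, plus strand) stood at 173 CPM (170 to 175, from 17133 counts) under vehicle and 293 CPM (290 to 297, from 32300 counts) under retinoic acid. The log2 ratio was 0.76 (0.74 to 0.79), an interval that lies wholly above 0. To compare shares of cells, each cell with at least 5000 UMIs outside a list of 10 granule genes was thinned to 5000 such UMIs. The thinned set holds 5279 vehicle and 6534 retinoic acid cells, without 197 and 606 cells of lower depth. At that depth 57.3% of vehicle cells and 75.8% of retinoic acid cells held a Spi1 UMI, a difference of 18.5 percentage points (16.8 to 20.2). Before thinning the shares were 89.2% and 94.1%. Cells with a Spi1 UMI held on average 1.64 of them under vehicle and 2.20 under retinoic acid, so both the share of cells and the count per positive cell were higher.

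Gfi1 (ENSMUSG00000029275, chr5:107716657-107726036, minus strand), the repressor needed for neutrophil formation, stood at 75.4 CPM (73.7 to 77.2) under vehicle and 144 CPM (142 to 146) under retinoic acid. Its log2 ratio of 0.93 (0.89 to 0.97) was the highest of the 10. The ratio reached 1.01 with TMM and 1.04 with DESeq2 scaling, which move all genes up by 0.08 and 0.11, so that Gfi1 then passed 2-fold and the count of genes past that limit became 5. A Gfi1 UMI was found in 28.5% of thinned vehicle cells and 48.9% of thinned retinoic acid cells, 20.4 percentage points apart (18.7 to 22.1). The unthinned shares were 61.7% and 74.3%. Gfi1 shares exon sequence with A430072P03Rik on the other strand, which held 189 and 328 counts, and whether the counting used the strand is not given in the sources used here.

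Irf8 and Klf4, the factors of the monocyte line, were scarcely found. Irf8 (ENSMUSG00000041515, chr8:120736358-120756694, plus strand) had 5 counts among all vehicle cells and 2 among all retinoic acid cells, and its ratio of -1.29 has an interval of -4.87 to 1.14. Klf4 (ENSMUSG00000003032, chr4:55527143-55532466, minus strand) had 21 and 10 counts, or 0.21 and 0.091 CPM, with a ratio of -1.19 (-2.47 to -0.07). After thinning, 2 vehicle cells and 1 retinoic acid cell held an Irf8 UMI, and 9 and 3 cells held a Klf4 UMI. At this depth no difference in Irf8 was detectable, and the interval of Klf4 comes close to 0. The summed level of 11 monocyte and macrophage markers was 168 CPM under vehicle and 21.1 CPM under retinoic acid. Cd68 led that list in both libraries, while Ms4a7 was at 0 under vehicle and at 2 counts under retinoic acid. The part of monocyte-line cells in these few counts was not tested.

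Runx1 (ENSMUSG00000022952, chr16:92601466-92826149, minus strand) stood at 191 CPM (189 to 194) under vehicle and 132 CPM (130 to 134) under retinoic acid, a log2 ratio of -0.54 (-0.57 to -0.50). It was the only one of the 6 genes with at least 20 CPM whose ratio lay below -0.5. A Runx1 UMI was found in 58.9% of thinned vehicle cells and 47.1% of thinned retinoic acid cells, a difference of -11.8 percentage points (-13.6 to -9.97). Its partner gene Cbfb (ENSMUSG00000031885, chr8:105170674-105217989, plus strand) differed the other way, at 32.8 CPM (31.7 to 34.0) and 38.1 CPM (37.0 to 39.3), with a ratio of 0.22. The share of cells with a Cbfb UMI was 14.3% and 17.6%. In single cells the shares of Cbfb-positive cells with and without Runx1 had overlapping intervals in both libraries. Under vehicle 13.8% (12.6 to 15.02) of cells with a Runx1 UMI and 15.03% (13.6 to 16.6) of cells without one held a Cbfb UMI, and under retinoic acid the shares were 18.3% (17.0 to 19.7) and 17.0% (15.7 to 18.3).

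Lmo2 (ENSMUSG00000032698, chr2:103957986-103981878, plus strand) was nearly level between the libraries, at 205 CPM (202 to 208) and 198 CPM (196 to 201). The ratio of -0.05 (-0.07 to -0.02) changed sign to 0.03 with TMM and 0.06 with DESeq2 scaling, so it has no direction that holds across scalings. The share of thinned cells with an Lmo2 UMI, 58.3% and 59.7%, differed by 1.31 percentage points with an interval of -0.47 to 3.10. Etv6 (ENSMUSG00000030199, chr6:134035700-134270158, plus strand) stood at 50.9 and 43.7 CPM, a ratio of -0.22 (-0.28 to -0.16), and its share of cells was 21.9% under vehicle and 19.1% under retinoic acid. Both ratios are small beside those of Spi1, Gfi1 and Gata1. Etv6 and Runx1 each share exon sequence with a gene on the other strand, but those held at most 5 counts in a library.

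Gata1 (ENSMUSG00000031162, chrX:7959260-7978071, minus strand) stood at 11.8 CPM (11.2 to 12.5, from 1174 counts) under vehicle and 1.10 CPM (0.91 to 1.31, from 121 counts) under retinoic acid. The log2 ratio was -3.42 (-3.71 to -3.16). A Gata1 UMI was found in 315 of 5279 thinned vehicle cells (5.97%) and in 39 of 6534 retinoic acid cells (0.60%), and before thinning in 15.3% and 1.54%. Cells with a UMI held 1.13 and 1.10 of them on average, a value so near 1 UMI that no difference per cell can be read from it. Of the retinoic acid cells with the most granule RNA, 0.27% held a Gata1 UMI (4 of 1470 thinned cells). That whole library holds little Gata1 RNA, so this share is no measure of free RNA under vehicle, which was not measured.

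Gfi1b (ENSMUSG00000026815, chr2:28609450-28621982, minus strand) stood at 2.70 CPM (2.39 to 3.05, from 268 counts) under vehicle, and 1 count was found among all retinoic acid cells. The log2 ratio was -7.64, with an interval of -13.53 to -5.73 that is wide because of that single count. Of thinned cells, 1.44% under vehicle and 0 of 6534 under retinoic acid held a UMI, and the interval of the latter reaches up to 0.056%. Gfi1 and Gfi1b thus lay on opposite sides: the vehicle library held both, and the retinoic acid library held more Gfi1 and almost no Gfi1b. In the vehicle library 0.86% (0.46 to 1.47) of cells with a Gfi1 UMI and 1.67% (1.28 to 2.13) of cells without one held a Gfi1b UMI, intervals that overlap slightly. The other pairs counted, Gfi1 with Irf8 and Irf8 with Klf4, came to at most 2 cells in a library, so that of 5 pairs 3 could be compared.

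The summed levels of mast cell and basophil, eosinophil, megakaryocyte and red cell markers were also lower under retinoic acid than under vehicle. The summed level of 10 mast cell and basophil markers was 806 CPM under vehicle and 68.1 CPM under retinoic acid. Cpa3, the mast cell carboxypeptidase, led it under vehicle and stood at 570 and 0.10 CPM. Mcpt8 led it under retinoic acid and stood at 122 CPM under vehicle and 63.1 CPM under retinoic acid. Fcer1a, Tpsab1 and Tpsb2 were at 0 in both libraries. The 9 eosinophil markers summed to 126 and 34.8 CPM, led by the granule genes Epx (55.3 and 5.92 CPM) and Prg2 (45.6 and 20.5 CPM). The 9 megakaryocyte markers summed to 29.5 and 1.47 CPM, of which Itga2b, the gene for integrin αIIb, gave 28.9 CPM under vehicle, with Ppbp, Gp6 and Treml1 at 0. Red cell markers were close to absent, at 4.25 and 0.83 CPM over 10 genes, with Car1 at 0 in both libraries. Single members of these lists went the other way, among them Ms4a2 of the mast cell list (144 and 226 counts) and the platelet genes Gp9 (8 and 57 counts) and Gp1bb (1 and 11 counts). The part of other cells or cell states in the lower Gata1 and Gfi1b was not tested.

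Within the vehicle library, Gata1 and Gfi1b RNA was found more often in cells with eosinophil granule RNA. Of the thinned vehicle cells, 187 held at least 2 UMIs of Epx, Prg2 and Prg3, genes of eosinophil granule proteins, and 4978 held none. A Gata1 UMI was found in 27.8% (21.5 to 34.8) of the first and 4.86% (4.28 to 5.50) of the second, and in CPM of the thinned counts Gata1 stood at 71.7 and 10.6, a log2 ratio of 2.76 (2.35 to 3.15). Gfi1b UMIs were in 12.8% (8.40 to 18.5) and 0.92% (0.68 to 1.23) of these cells, a ratio of 3.83 (3.07 to 4.53). Lmo2 differed the other way, in 28.3% (22.0 to 35.4) against 59.9% (58.6 to 61.3) of cells, with a ratio of -1.44 (-1.81 to -1.11). Gfi1 was also lower there, in 19.3% against 28.9% of cells, while Spi1 and Runx1 were each 0.37 higher on the log2 scale. The intervals of Etv6 and Cbfb spanned 0. The eosinophil granule cells were the shallower, with a median of 11633 UMIs before thinning against 17192.

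**Figure D2:**
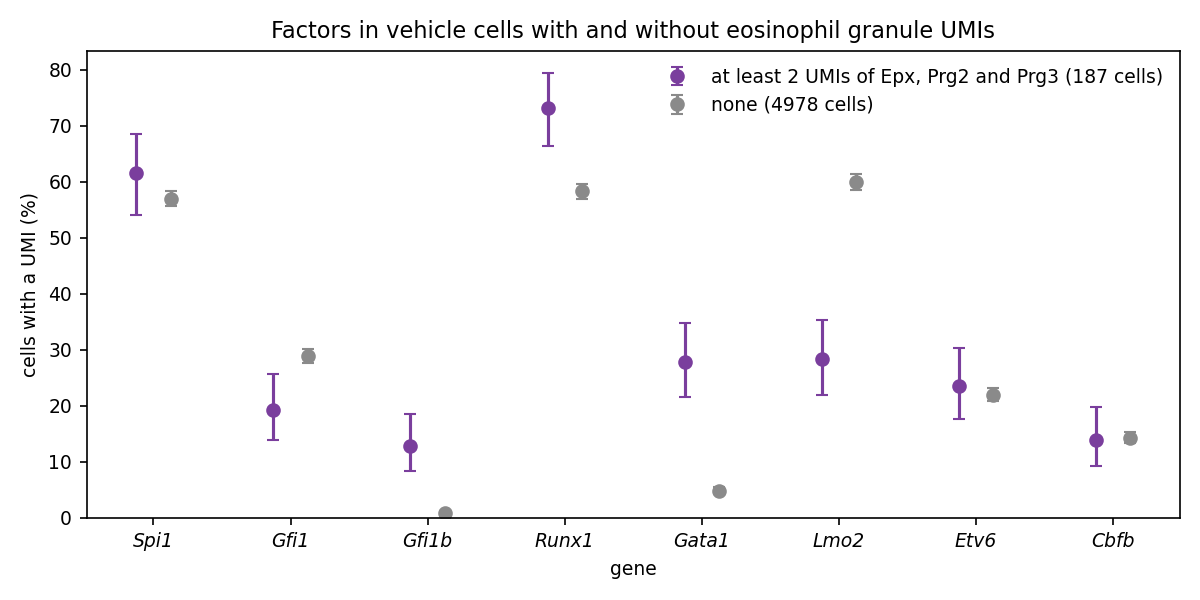
Share of thinned vehicle cells with a UMI of each factor, in percent, for cells with at least 2 UMIs of Epx, Prg2 and Prg3 (purple, 187 cells) and cells with none (gray, 4978 cells); bars are exact 95% binomial intervals for counting error. Gata1 and Gfi1b are higher in purple (27.8% against 4.86% and 12.8% against 0.92%), Lmo2 is lower (28.3% against 59.9%), and Etv6 and Cbfb overlap.

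Most Gata1-positive vehicle cells nevertheless lay outside this set: 52 of its 315 Gata1-positive cells were among the 187, and 242 among the 4978 without eosinophil granule UMIs. In the retinoic acid library only 26 thinned cells held at least 2 of these UMIs, and 6 of them (23.1%, 8.97 to 43.6) held a Gata1 UMI, against 27 of 6413 cells (0.42%) without. No Gfi1b UMI was found in either set. The other factors did not all differ as under vehicle: Spi1 was lower in the 26 cells (-0.72, -1.36 to -0.19), Cbfb was higher (1.29, 0.28 to 2.04), and the interval of Lmo2 spanned 0 (-0.23, -0.95 to 0.35). The interval of the retinoic acid share, 8.97% to 43.6%, includes the vehicle share of 27.8%, while there were fewer such cells under retinoic acid. The difference between those shares was not tested.

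Cpa3, found in 3075 of the thinned vehicle cells, also went with Gata1, Gfi1b and Runx1. Gata1 UMIs were in 7.71% (6.79 to 8.71) of cells with a Cpa3 UMI and 3.54% (2.81 to 4.40) of the 2204 without, a log2 ratio of 1.14 (0.79 to 1.51), and Gfi1b UMIs were in 1.98% and 0.68%. Runx1 was higher in cells with Cpa3, in 65.6% (63.9 to 67.2) against 49.6% (47.5 to 51.7) of cells, a ratio of 0.62 (0.54 to 0.71). Lmo2 was lower, in 53.6% against 64.9%, and Gfi1 and Spi1 had log2 ratios of -0.40 and -0.13 (-0.21 to -0.05 for Spi1). So Runx1, Gata1 and Gfi1b were higher in the vehicle cells that held Cpa3, a gene that was at 0.10 CPM under retinoic acid, and Lmo2, Gfi1 and Spi1 were higher in those without.

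Seen from the factors, the 315 vehicle cells with a Gata1 UMI held 752 CPM of the eosinophil list against 116 in the 4964 others, 1773 against 854 CPM of the mast cell and basophil list, and 73.7 against 34.0 CPM of the megakaryocyte list. The promyelocyte list was lower in them, at 5853 against 7890 CPM, and the red cell list stood at 8.89 against 4.07 CPM. Gfi1b was higher in these cells, at 12.7 against 2.62 CPM (2.30, 1.48 to 3.02), and Lmo2 lower, at 129 against 203 CPM (-0.65, -0.87 to -0.45). Spi1 stood at 202 and 187 CPM, and the interval of its ratio, -0.06 to 0.28, spans 0. Spi1 and Gata1, the classical pair of opposed factors, had overlapping shares in vehicle cells: 5.88% (5.07 to 6.78) of cells with a Spi1 UMI and 6.08% (5.13 to 7.15) of cells without one held a Gata1 UMI. Under retinoic acid the shares were 0.46% (0.29 to 0.70) and 1.01% (0.58 to 1.64), whose intervals overlap. Overlap of the intervals does not show that the shares are equal. In the 39 retinoic acid cells with a Gata1 UMI, Spi1 stood at 221 CPM, against 335 CPM in the 6495 others. That log2 ratio was -0.59 (-1.07 to -0.17), an interval wholly below 0. The 76 Gfi1b-positive vehicle cells held 1689 CPM of the eosinophil list against 132 in the others, and 2650 against 883 CPM of the mast cell and basophil list.

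The second comparison followed each factor along granule RNA within a library. The granule share gives the UMIs of 10 genes of late neutrophil granules and maturation (Camp, Ngp, Ltf, Lcn2, Mmp8, Mmp9, Cd177, Chil3, Hp and Pglyrp1) as a percent of all UMIs in the cell. Its median was 0.087% under vehicle and 2.13% under retinoic acid. Cells of each library were cut into 4 groups of equal size by this share, 1369 cells a group under vehicle and 1785 under retinoic acid. Group medians ran from 0.038% to 0.21% under vehicle and from 0.45% to 12.5% under retinoic acid, so the groups of the 2 libraries cover different ranges. Levels below are CPM of the UMIs outside the granule list. The groups also differed in phase and depth: the share of cells called G1 was 51.9% in the lowest and 65.3% in the highest vehicle group and 23.3% and 50.6% in those under retinoic acid, where the median depth went from 17459 to 10024 UMIs.

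Spi1 was higher in each successive granule group of both libraries. Its vehicle values by ascending group were 146, 156, 172 and 227 CPM, a log2 ratio of highest over lowest of 0.64 (0.57 to 0.70). Under retinoic acid it stood at 218, 274, 324 and 494 CPM, a ratio of 1.18 (1.14 to 1.23) or 2.27-fold. The share of thinned cells with a Spi1 UMI went from 49.8% to 68.3% under vehicle and from 65.3% to 89.3% under retinoic acid. The lowest retinoic acid group, at 218 CPM, lay close to the highest vehicle group, at 227 CPM. At least 1.5-fold between the end groups was reached by Spi1 alone of the 7 genes with at least 5 CPM in an end group under vehicle, where 5.67% of 9058 genes reached it (3.55% higher and 2.12% lower), and by Spi1 alone of 6 under retinoic acid, where 33.4% of 9015 did (11.9% higher and 21.5% lower). Without the vehicle cells above the 95th percentile of granule share the vehicle ratio was 0.48, in G1 cells only it was 0.53 and between 2 groups cut at the median it was 0.38, all under 1.5-fold.

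**Figure D3:**
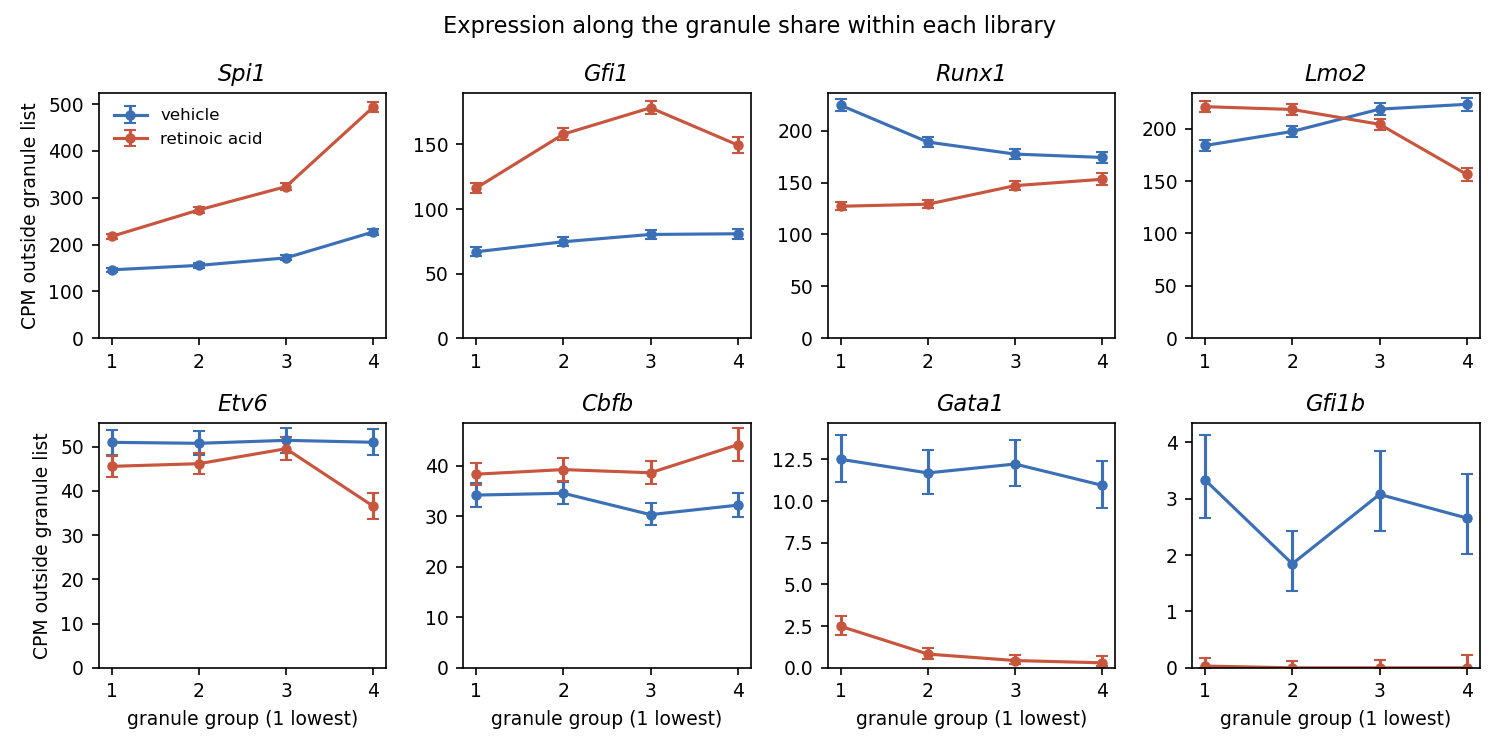
Level of 8 factors in CPM outside the granule list in the 4 granule groups of each library (1 lowest share, 4 highest), vehicle in blue and retinoic acid in red, with exact 95% Poisson intervals; each panel has its own axis from 0. Spi1 climbs in both libraries, to 227 CPM in blue and 494 CPM in red, the Runx1 and Lmo2 lines slope in opposite directions in the libraries, and red Gata1 goes from 2.49 to 0.30 CPM.

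Over all phases, Gfi1 did not follow Spi1 to the end of the range. Under vehicle it stood at 66.9, 74.7, 80.3 and 80.8 CPM, and under retinoic acid at 116, 158, 178 and 150 CPM, with its highest value in the next to highest group. The ratios of highest over lowest were 0.27 (0.17 to 0.37) and 0.36 (0.29 to 0.44). The share of cells with a Gfi1 UMI had the same shape under retinoic acid, at 41.6%, 52.2%, 55.4% and 46.0%. Even the lowest retinoic acid group lay above every vehicle group.

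Runx1 and Lmo2 had opposite directions in the libraries. Runx1 stood at 225, 189, 177 and 174 CPM along the vehicle groups, a ratio of -0.37 (-0.43 to -0.31), and at 127, 129, 147 and 153 CPM along the retinoic acid groups, a ratio of 0.27 (0.20 to 0.34). Between groups of the same rank, which cover unlike granule shares in the libraries, the gap was widest in the lowest. Lmo2 stood at 184, 197, 219 and 223 CPM under vehicle (0.28, 0.22 to 0.34) and at 221, 218, 204 and 156 CPM under retinoic acid (-0.50, -0.56 to -0.43). Although the whole libraries were nearly level, Lmo2 was thus lower under vehicle in the lowest group and higher in the highest. Groups of the same rank are not matched in granule share. The highest vehicle group, at 223 CPM, and the lowest retinoic acid group, at 221 CPM, were close in level. None of these ratios reached 1.5-fold, and the median over all genes was -0.073 under vehicle and -0.19 under retinoic acid.

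Etv6 was flat under vehicle, between 50.7 and 51.4 CPM in the 4 groups, and under retinoic acid stood at 45.5, 46.1, 49.5 and 36.5 CPM (-0.32, -0.46 to -0.18). Cbfb stood at 34.2, 34.6, 30.3 and 32.2 CPM under vehicle, with an interval of -0.23 to 0.06, and at 38.3, 39.2, 38.6 and 44.2 CPM under retinoic acid (0.20, 0.07 to 0.34), a direction that did not hold in G1 cells. For both genes the largest step between neighbouring retinoic acid groups was that to the highest group. The vehicle levels of Gata1 over all phases had a ratio whose interval spans 0, at 12.5, 11.7, 12.2 and 10.9 CPM (-0.19, -0.44 to 0.06). Under retinoic acid it stood at 2.49, 0.82, 0.44 and 0.30 CPM, from 79, 25, 12 and 5 counts, a ratio of -2.92 (-4.71 to -1.76), which is past 1.5-fold at levels under 5 CPM. Most of the little Gata1 RNA left under retinoic acid was thus in the cells with the least granule RNA. Gfi1b stood at 3.33, 1.84, 3.08 and 2.66 CPM under vehicle, also with an interval that spans 0 over all phases (-0.32, -0.84 to 0.18). Klf4 had 6 and 7 counts in the end groups under vehicle (0.38, -1.40 to 2.24). Gfi1b, Irf8 and Klf4 had at most 3 counts in both end groups under retinoic acid and get no ratio there.

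Cells under a common limit of granule share were then compared between the libraries. At or below 0.40%, the 95th percentile of the vehicle cells, lay 5202 vehicle and 732 retinoic acid cells; their shares below the limit were not matched. Spi1 stood at 167 and 200 CPM in them, a ratio of 0.26 (0.20 to 0.32) against 0.76 over all cells. Gfi1 stood at 74.8 and 108 CPM (0.53, 0.44 to 0.61) and Runx1 at 192 and 128 CPM (-0.59, -0.67 to -0.52). Lmo2 was nearly level, at 205 and 214 CPM (0.056, -0.00099 to 0.11). Gata1 stood at 12.0 and 4.13 CPM, a ratio of -1.53 (-1.96 to -1.15) against -3.42 over all cells, and Gfi1b at 264 counts and 1 count. Under this limit the gaps of Spi1, Gfi1 and Gata1 were smaller than in whole libraries, while that of Runx1 was -0.59 against -0.54. Of 7 genes with at least 5 CPM 1 (Gata1) reached 2-fold, against 7.63% of 9132 genes (2.08% higher and 5.55% lower).

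The libraries also differed in cell cycle phase. Cells called G1, S and G2/M from lists of cycle genes made up 54.3%, 13.04% and 32.7% of the vehicle cells and 29.9%, 28.5% and 41.6% of the retinoic acid cells. The ratio of Spi1 was 0.93, 0.86 and 0.82 within G1, S and G2/M, and that of Gata1 was -3.16, -3.20 and -3.28. Both were nearly the same in every phase. The ratio of Gfi1 was 1.09 in G1, 0.91 in S and 0.77 in G2/M. Runx1 differed mainly in G1, where it stood at 249 CPM (244 to 254) under vehicle and 140 CPM under retinoic acid (-0.83, -0.88 to -0.77). In S it stood at 147 and 140 CPM, and the interval of the ratio, -0.15 to 0.0045, spans 0. In G2/M it stood at 151 and 124 CPM (-0.28). Under vehicle, then, Runx1 was higher in G1 than in the other phases, and under retinoic acid it lay between 124 and 140 CPM in all of them.

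**Figure D4:**
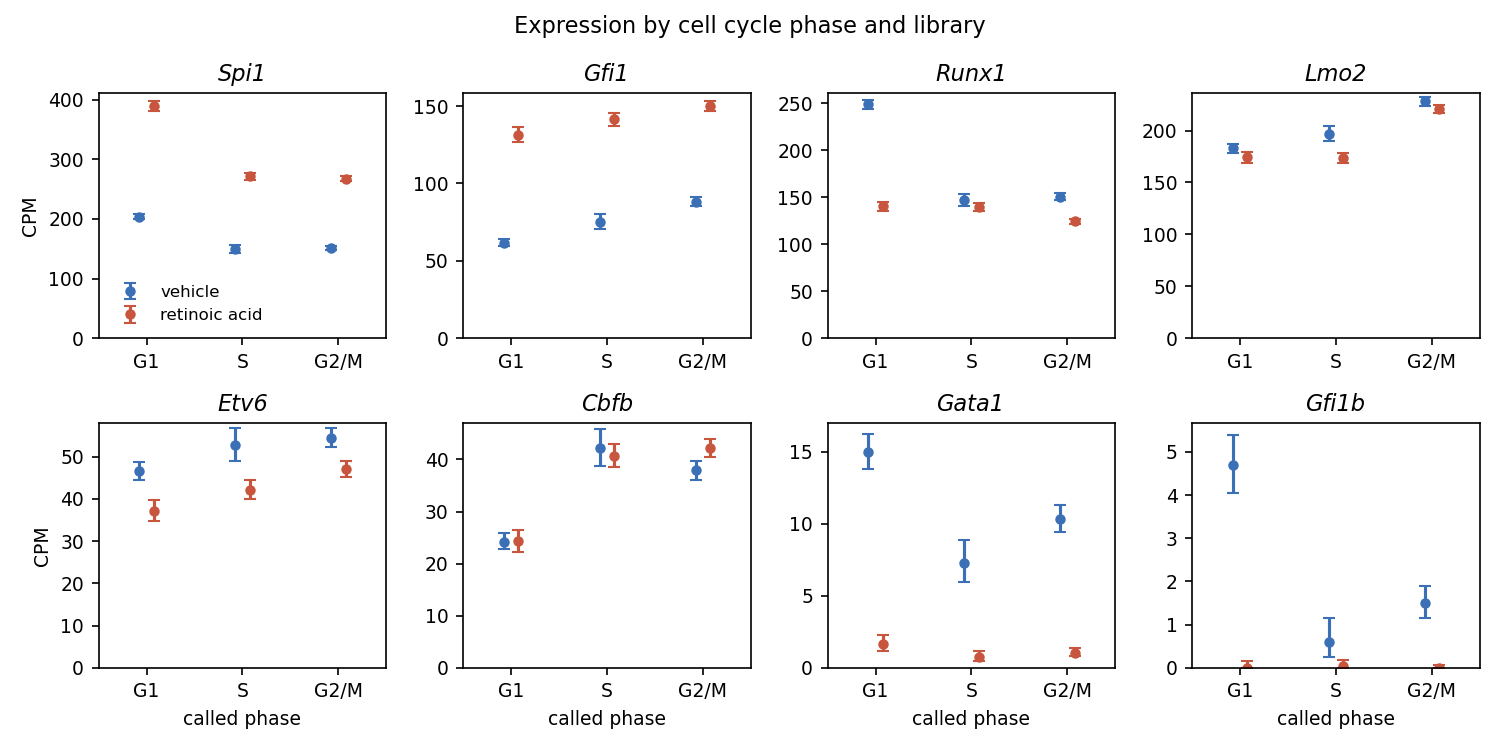
Level of 8 factors in CPM in cells called G1, S or G2/M, vehicle in blue and retinoic acid in red, with exact 95% Poisson intervals; each panel has its own axis from 0. Spi1 and Gfi1 are higher in red in each phase, Runx1 differs most in G1 (249 and 140 CPM), and Gata1 is lower in red in each phase.

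Gfi1b had its highest vehicle level in G1 too, at 4.69 CPM against 0.59 in S and 1.49 in G2/M. The ratios of Lmo2 (-0.07, -0.18 and -0.04) and Etv6 (-0.32, -0.32 and -0.21) were small in each phase, and those of Cbfb (0.00, -0.05 and 0.15) had intervals that spanned 0 in G1 and S. Cbfb itself varied more with phase than with treatment: it stood at 24.2 CPM in G1 and 42.2 CPM in S under vehicle and at 24.3 and 40.7 CPM under retinoic acid.

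With phase and granule share combined, Spi1 was higher in the highest than in the lowest granule group in every phase. The vehicle ratios were 0.53 in G1, 0.49 in S and 0.65 in G2/M. Under retinoic acid it stood at 270 CPM in the lowest and 601 CPM in the highest granule group of G1 cells (1.15), at 218 and 409 CPM in S (0.91) and at 202 and 442 CPM in G2/M (1.13). The slope of Gfi1 under retinoic acid depended on phase, at 0.00050 in G1 (-0.15 to 0.16), 0.37 in S and 0.69 in G2/M (0.58 to 0.80). By ascending group Gfi1 stood at 116, 167, 172 and 116 CPM in G1 and at 112, 160, 172 and 145 CPM in S. In G2/M, at 118, 154, 183 and 191 CPM, it was highest in the highest group. The slope of Runx1 was -0.13 in G1 (-0.27 to 0.01), 0.29 in S and 0.48 in G2/M (0.37 to 0.59), so its direction over the whole library did not hold in G1. Cbfb likewise had a ratio of -0.33 in G1 (-0.66 to -0.0055), 0.51 in S and 0.53 in G2/M (0.34 to 0.72). The ratios of Lmo2 were -0.60, -0.42 and -0.35 in these phases. Etv6 in G1 stood at 52.2 CPM in the lowest and 24.9 CPM in the highest group, a ratio of -1.07 (-1.36 to -0.78), against -0.32 over all phases. Under vehicle, Gata1 and Gfi1b were lower in the highest group among G2/M cells, with ratios of -0.61 (-1.08 to -0.17) and -1.68 (-3.51 to -0.43). In G1 their intervals spanned 0.

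The wider network of 58 other blood cell transcription factors and cofactors gives a measure for these differences. Of the 32 that reached 20 CPM in either library, 3 were at least 2-fold higher under retinoic acid and 3 at least 2-fold lower, with a median of -0.14. Those higher were Ets1, an ETS factor of lymphoid cells (18.0 and 82.5 CPM), Id2, an inhibitor of helix-loop-helix factors (33.6 and 74.7 CPM), and Cebpd, a C/EBP factor (98.3 and 209 CPM). Those lower were Gata2, the GATA factor of stem cells and mast cells (43.2 and 1.14 CPM, -5.23), Ikzf2, an Ikaros family factor (86.0 and 3.25 CPM, -4.72), and Cbfa2t3, a corepressor (93.5 and 41.9 CPM, -1.16). Gata2 thus lay lower together with Gata1 and Gfi1b. Of the 5 with the highest levels over both libraries Cebpe, the C/EBP factor of granule genes, stood at 401 and 359 CPM, Myb at 208 and 155, Cebpb at 162 and 260 and Nfe2 at 137 and 115, and the fifth was Cebpd. The ratios of Spi1 and Gfi1, 0.76 and 0.93, lay below those of Ets1, Id2 and Cebpd and above those of the other network genes with at least 20 CPM.

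**Figure D5:**
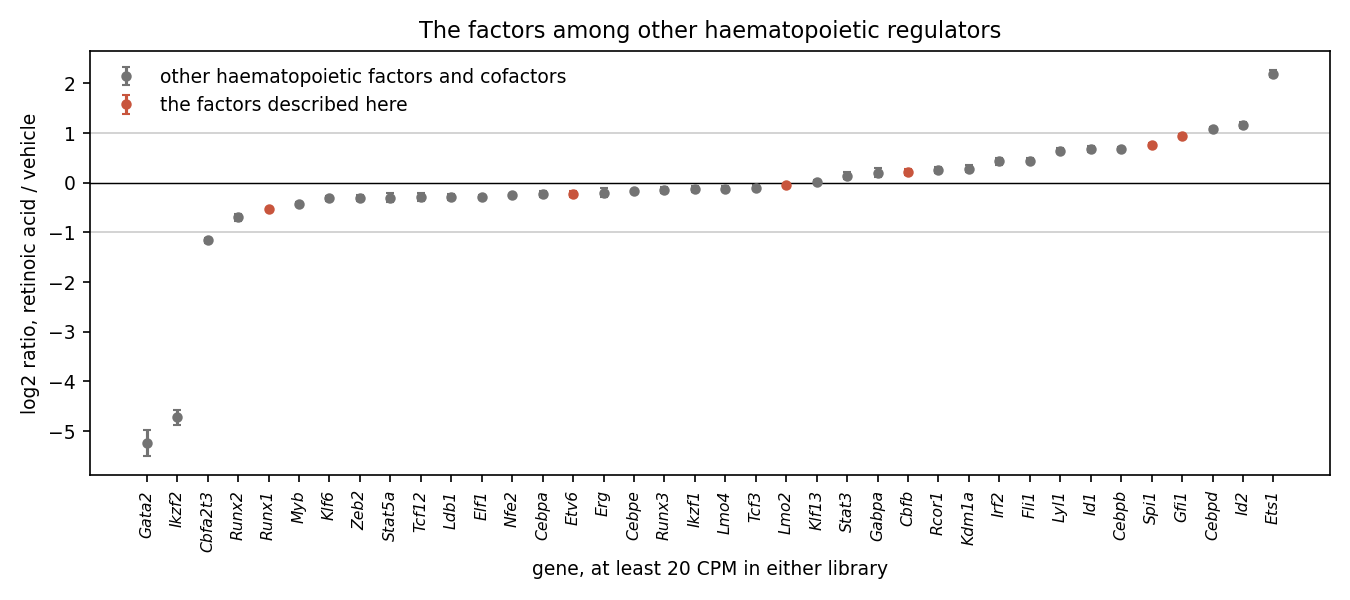
Log2 ratio of retinoic acid over vehicle for 6 of the factors described here (red) and 32 other haematopoietic factors and cofactors (gray), all with at least 20 CPM in either library, in order of the ratio; bars are exact 95% intervals for counting error and gray lines mark 2-fold. Spi1 (0.76) and Gfi1 (0.93) lie near the upper end, Runx1 (-0.54) is the fifth lowest, and Gata2 (-5.23) and Ikzf2 (-4.72) lie lowest.

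Along the granule groups of the retinoic acid library, 16 of the 38 network genes compared were at least 1.5-fold higher in the highest group and 7 at least 1.5-fold lower, with a median of 0.48, against 11.9% and 21.5% of all genes. Cebpe was among the higher ones, at 228 CPM in the lowest and 800 CPM in the highest group (1.81), and Cbfa2t3 among the lower ones, at 60.2 and 13.4 CPM (-2.16). Spi1, at 1.18, thus lay between Cebpe and the network's median.

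For the 6 factors with at least 20 CPM, the genes with the most similar level over the 8 granule groups of both libraries were sought among 5535 candidates, by Pearson's r of log2(CPM + 1). The groups come from 2 libraries and differ in depth and phase, so r is a description. Spi1 was most like Prdx5, a peroxiredoxin gene (r = 0.998), Hpcal1 and Rnf130. Prdx5 stood at 648 CPM under vehicle and 1366 CPM under retinoic acid. Gfi1 was most like Mis18a (r = 0.992) and Sh2b1, and Runx1 most like Mkln1 (r = 0.986), Grb2 and Atp6v1g1. Lmo2 was most like Micos13 (r = 0.962), C1qtnf6 and Naxd, Etv6 most like Rbm42 (r = 0.974), C330007P06Rik and Mrpl57, and Cbfb most like Ube2f (r = 0.975), Slc6a6 and Raly.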

How the data were processed

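Sorted promyelocytes were sequenced as 3′ single-cell libraries, 1 per group. The authors deposited raw UMI counts per gene and cell, made with Cell Ranger 4.0.0 on mm10 and GRCm38.p4 per the submitters' processing notes. The annotation, the rule for calling cells and whether strand was used are not given in the sources used here. No normalization was applied to the deposited counts.

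Cells with at least 1000 UMIs, 500 genes and at most 10% mitochondrial UMIs were kept (5476 of 5786 vehicle and 7140 of 7416 retinoic acid barcodes). Scrublet called 1 and 7 doublets, too few to have worked, so none were removed; an alternative removed the 5% with the highest scores. Counts were summed per library, and 0.5 was added to each sum for ratios. Sums carry exact Poisson intervals, shares Clopper-Pearson, share differences Newcombe and ratios conditional binomial intervals, all at 95%. A sum of 0 allows 3 counts, which is 0.030 CPM under vehicle and 0.027 CPM under retinoic acid. With 1 library per group no test was made. Phases were called with scanpy 1.11.5, and scaling alternatives used edgeR 4.0.16 and DESeq2 1.42.0 factors on the same counts. The ratio calculation was tested on simulated counts.

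Of the gene identifiers, 32235 of 32285 matched GENCODE M21 (GRCm38), which gave positions. All 10 factors are named, with the network genes at least 2-fold different at 20 CPM or more, the 5 most abundant of that list and the 3 genes most like each factor; a few genes these rules pick are not reported here. The factors, lists and rules were chosen with earlier results of these data known. The sets of cells with eosinophil granule or Cpa3 UMIs, the count at 5 CPM, the promoter letters and the comparison without the vehicle cells of highest granule share or cells of low mitochondrial content were added after these counts were seen.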

Additional observations from a re-analysis of the deposited data

Results flagged for a closer look

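Runx1 and Lmo2 went in opposite directions along the granule groups of the libraries. The ratio of the highest over the lowest group was -0.37 under vehicle and 0.27 under retinoic acid for Runx1, and 0.28 under vehicle and -0.50 under retinoic acid for Lmo2. The difference between the libraries was not tested, since each held 1 sample. The groups cover different ranges of granule share, with a median of 0.21% in the highest vehicle group and 12.5% in the highest retinoic acid group. Within G1 cells Lmo2 still had opposite signs, at 0.48 and -0.60, while Runx1 had the same sign in both libraries, at -0.55 and -0.13.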

How the results depend on the processing

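No paired analysis was possible because the groups have 1 sample each. Over 293 values of alternatives, 207 stayed close to the reported one, 86 moved further, and no ratio past its fold limit changed sign. Smaller ratios did: in G1 cells the retinoic acid granule ratios of Runx1 and Cbfb were -0.13 and -0.33, against 0.27 and 0.20. The median log2 ratio of the 10 genes, -0.38 as reported, was -0.30 with TMM, -0.27 with DESeq2 size factors, -0.44 with equal weight for every cell, -0.33 with the granule list out of the total, -0.44 at the vehicle's shares of phases and 0.085 over the genes with at least 20 CPM. The count of genes at least 2-fold different, 4 as reported, was 1 at 5 CPM and 0 at 20 CPM. The median difference in the share of cells with a UMI, -0.074 percentage points after thinning, was -1.37 points without it. Of the genes at least 1.5-fold different along the vehicle granule groups, 1 as reported, there were 3 with S100a8 and S100a9 added to the granule list, 0 in G1 cells only, 2 with a split into 2 groups at the median, 2 without the cells of highest doublet score and 0 at a limit of 2-fold. The counts of 3 and 2 include Klf4, which rests on few counts, with ratios of 0.69, 0.80 and 0.67 under these settings. With S100a8 and S100a9 added, the others were Gfi1b (-0.78) and Spi1 (0.59). At the median split the ratio of Spi1 was 0.38, and the other gene counted was Irf8. It had only 1, 0, 2 and 2 counts in the 4 vehicle groups. Under retinoic acid 2 reached it as reported, Spi1 and, at levels under 5 CPM, Gata1. There were 4 in G1 cells only (Spi1, Gata1, Lmo2 and Etv6). Over all phases 33.4% of all genes with at least 5 CPM reached 1.5-fold there. Such a share was not counted under the alternative settings, so these counts have no measure beside them. The causes were not tested. Depth limits Irf8, Klf4 and, under retinoic acid, Gfi1b, of which only Klf4 under vehicle gets a ratio across the 4 granule groups, from 6 and 7 counts. One library per group means that no value here separates the treatment from differences between mice, sorts or preparations.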

Other observations

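Zfpm1, Klf1 and Tal1 were among the network genes that did not reach 20 CPM in either library. Zfpm1, which encodes the GATA partner FOG1, stood at 16.7 CPM under vehicle and 3.13 CPM under retinoic acid, a log2 ratio of -2.41 (-2.59 to -2.25). Klf1, the red cell factor downstream of GATA1, had 120 and 71 counts, and Tal1, a partner of LMO2 in red cells, had 2 and 0. Lyl1, a relative of Tal1, stood at 63.8 and 99.6 CPM, and Ldb1, which binds LMO2, at 41.8 and 34.1 CPM. Runx2 and Runx3, the relatives of Runx1, stood at 39.1 and 24.2 CPM (-0.70) and at 60.9 and 55.1 CPM (-0.15). These genes were singled out after their values were seen.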
